A study of Rattus norvegicus with 15 samples.

Results

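The comparison described here set the retinas of rats that received mesenchymal stem cells (MSC) against those of rats that received a sham injection. Both groups were also given sodium iodate (NaIO3). It took the 3 MSC and the 3 sham libraries of the 15 in the series, and all genes whose mean regularized log (rlog) value over these 6 libraries reached the log2 of 10, to 2 decimals. This kept 15449 of the 20375 genes listed. The rlog value is a log2 expression level that the authors corrected for library size and shrank toward the mean of each gene. The difference reported for a gene is the MSC mean minus the sham mean in log2 units. At the edge of the rule, *Troap* was kept with a mean of 3.3284 and the first gene left out had a mean of 3.3196.

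The rats were wild-type Sprague-Dawley animals, which the labels place at postnatal week 12 and at day 31 after transplantation. The sham and MSC groups both received NaIO3 at 40 mg/kg, an oxidant that kills the retinal pigment epithelium (RPE) and then the photoreceptors resting on it. The cells were human Wharton's jelly MSCs given by intravitreal injection, and the sham eyes received an injection of the vehicle. In the paper's methods the stem cells were injected before NaIO3 was given. The labels give dexamethasone at 2 mg/kg and cyclosporin at 10 mg/kg per day to the rats that carried xenografts and do not say that sham rats had them, so the cells and the immunosuppression cannot be told apart in this comparison. A no-treatment (NT) group of 3 libraries, with neither cells nor NaIO3, is quoted as the level without injury. The fit also held 3 libraries of rats given MSCs modified to express erythropoietin (MSCEPO), and a fit of all 15 added 3 of rats given the cells labelled DPSC, both groups with the same NaIO3 and immunosuppression, and both serve here only to estimate the spread. Reads were quantified on rat sequences alone, so human transcripts were not counted as such. Any human reads assigned to rat genes cannot be told apart from rat reads here. Read counts were not used here, and rlog values do not give sequencing depth, which is therefore unknown.

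The retina turns light into voltage in rods and cones, where an activated opsin drives transducin, a phosphodiesterase and a cyclic-nucleotide-gated channel. The eye is normally kept nearly free of lymphocytes, and resident microglia are its main immune cells. Human cells placed in a rat eye are foreign tissue. T cells recognize foreign peptides on major histocompatibility complex (MHC) molecules, and interferons raise both MHC expression and a set of antiviral genes. Müller glia span the retina, feed and buffer its neurons, and take on intermediate filaments when they are stressed.

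The 6 libraries lay on one scale, with a median rlog value of the tested genes between 8.70 and 8.81. The tissue was labelled as retina, and *Gnat1*, which defines rods, read 15.54 to 16.99 in the 6 libraries. The 3 MSC libraries differed widely in how far they stood from sham. MSC replicate 1 had 1273 genes more than 1 log2 unit above the sham mean and 41 more than 1 unit below it, MSC replicate 2 had 484 and 69, and MSC replicate 3 had 202 and 90. Each sham library, measured against the mean of the other 2, had 15 to 74 genes above and 26 to 63 below. MSC replicate 1 thus stood apart, and differences over 1 log2 unit that it moved by over 1.5 times are given without it as well, as are the list medians it moved that far. Of the 52 genes named in the text with a difference over 1 log2 unit, 40 were still over 1 without it and 18 lost more than a factor of 1.5. In these bulk samples fewer cells of a type and less RNA per cell cannot be told apart. Nothing in the labels says that libraries came from separate animals, so p-values measure the spread between these samples.

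**Figure D1:**
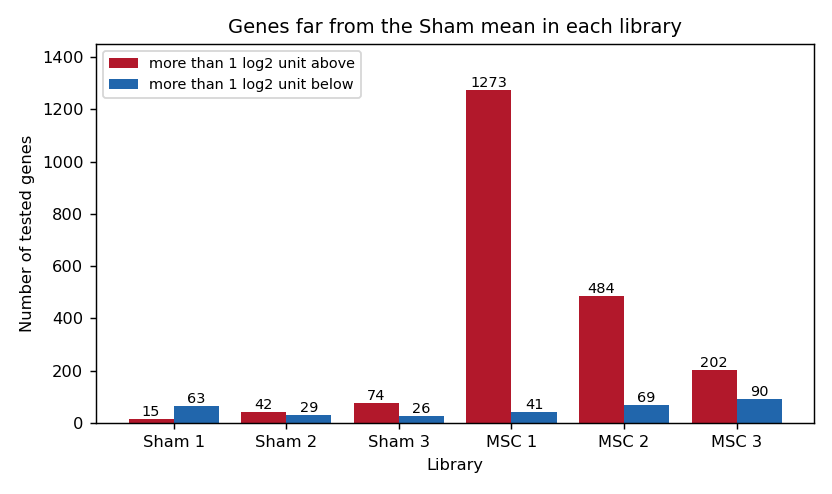
Number of tested genes (vertical axis) lying more than 1 log2 unit above (red) or below (blue) the sham mean in each of the 6 libraries (horizontal axis), where a sham library is measured against the mean of the other 2. The red bar of MSC replicate 1 reaches 1273 and that of MSC replicate 3 reaches 202, while the blue bars of the MSC libraries stay between 41 and 90.

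Few genes passed the test across the genome. In the limma fit of 12 libraries, 15 genes had a Benjamini-Hochberg adjusted p under 0.05, or 0.0971% of those tested. Of these, 11 were higher by over 1 log2 unit (0.0712%) and 2 were lower by over 1 log2 unit (0.0129%). By size alone, without a test, 561 genes (3.63%) were over 1 log2 unit higher and 25 (0.162%) over 1 unit lower. The 3 MSC libraries lay wholly above the 3 sham libraries for 2047 genes (13.3%) and wholly below for 1750 (11.3%). Before adjustment, p was under 0.05 for 1428 genes with higher means (9.24%) and 586 with lower means (3.79%), a split that became 1089 and 1324 with quantile normalization. The median difference over all tested genes was near 0, and 49.9% of genes had the higher mean in the MSC group. The number called higher was 570 without MSC replicate 3, 2 without MSC replicate 1, MSC replicate 2 or sham replicate 1, and 1 without sham replicate 2 or 3. In a limma fit of all 15 libraries no gene was called in either direction, with 1481 higher and 589 lower at an unadjusted p under 0.05.

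All 11 genes that rose by over 1 log2 unit with an adjusted p under 0.05 are listed by identifier without a symbol. Their sham values ran from 3.12 to 4.45, close to the bottom of the scale, and their MSC values ran from 3.98 to 10.4. The gene with the smallest adjusted p, ENSRNOG00000050489, read 3.46, 3.49 and 3.46 in the sham libraries and 5.56, 5.43 and 5.75 in the MSC libraries. It rose by 2.11 ± 0.11 (SE; adjusted p = 2.54e-05) and lay close together in the 3 MSC libraries. It kept an adjusted p under 0.05 whichever single library was left out, and had 0.134 in the fit of 15 libraries. The largest of these rises was that of ENSRNOG00000050708, from 4.10, 4.07 and 4.16 to 10.43, 9.32 and 7.81 (difference 5.08 ± 0.70, SE; adjusted p = 0.0269). ENSRNOG00000050708 kept its call without MSC replicate 3 only, with 0.0976 to 0.167 without any other library. Among all genes over 1 log2 unit higher, 135 of 561 had no symbol.

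With a symbol, 4 genes passed the adjusted p. *Hspb1*, the small heat shock protein HSP27 of stressed glia and other cells, read 7.71, 7.96 and 7.87 in sham and 8.81, 8.63 and 8.76 in MSC, and rose by 0.89 ± 0.13 (SE; adjusted p = 0.0382). *Cds1* makes CDP-diacylglycerol for the resynthesis of phosphoinositides. Its values were 12.16, 12.04 and 12.03 in sham and 11.30, 11.26 and 11.16 in MSC, so that it fell by 0.84 on the log2 scale (SE 0.11; adjusted p = 0.021). *Myh6*, a cardiac myosin heavy chain, fell by 1.31 (SE 0.17; adjusted p = 0.0198), from 8.79, 9.29 and 9.32 to 7.76, 8.07 and 7.65. It was on the list of muscle and blood contamination, where 10 of 15 tested genes had a lower mean and 5 a higher one. The median of that list was -0.26, and -0.52 without MSC replicate 1. The part of such tissue in this fall was not tested. *RGD1560925* fell by 1.13 (SE 0.16; adjusted p = 0.0313), from 12.95, 12.81 and 13.20 to 11.61, 11.79 and 12.15. In each of these 4 genes the 3 MSC libraries lay on one side of all sham libraries. All 4 kept an adjusted p under 0.05 without MSC replicate 3, and without sham replicate 1 *Myh6* did too. Without any other single library the adjusted p was 0.117 to 0.261 for *Hspb1*, 0.0801 to 0.158 for *Cds1*, 0.0586 to 0.135 for *Myh6* and 0.111 to 0.201 for *RGD1560925*. With only the 6 MSC and sham libraries in the fit it was 0.0737 for *Myh6* and 0.0875 for *RGD1560925*, and with all 15 it was 0.134 to 0.169 for the 4 genes.

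The MSC libraries were spread more widely in the genes with large positive differences than in those with large negative ones, which is a description with no test. Of the 561 genes over 1 log2 unit higher, 505 (90%) had their highest MSC value in replicate 1 and 530 had their lowest in replicate 3. Over all tested genes, replicate 1 was the highest MSC library for 46%. The median distances of the 561 genes from the sham mean were 2.47 in MSC replicate 1, 1.37 in replicate 2 and 0.71 in replicate 3, and 163 of them stood over 1 unit above sham in all 3. For the 25 genes over 1 unit lower the same medians were -1.22, -1.43 and -1.34. A further count took only genes whose MSC and sham libraries did not overlap. Among the 1028 of these whose mean was over 0.5 higher, 70 (6.81%) had an MSC range smaller than their difference divided by 2. Among the 180 non-overlapping genes over 0.5 lower, 99 (55%) did. The median SD among the MSC libraries was 0.957 in the 561 higher genes against 0.172 among the sham libraries, and 0.39 against 0.452 in the 25 lower genes.

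**Figure D2:**
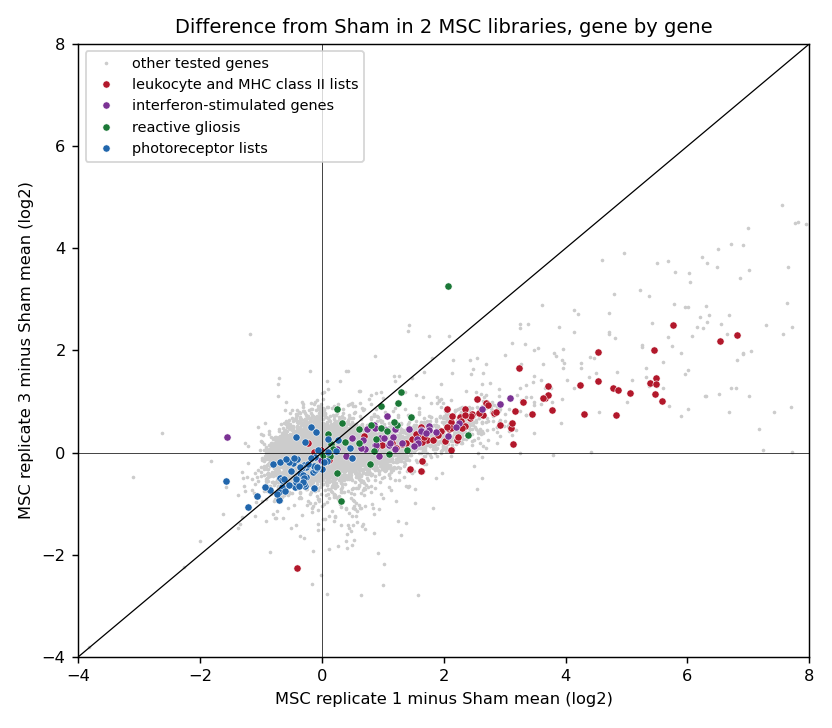
Distance of each tested gene from the sham mean in MSC replicate 1 (horizontal axis, log2) and MSC replicate 3 (vertical axis, log2), with 1 gene outside the axes and the diagonal marking equal distance. Leukocyte and MHC class II genes (red) spread to the right far below the diagonal, whereas photoreceptor genes (blue) lie along it below 0.

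Genes of leukocytes had positive differences almost throughout. Of the 18 tested genes found in most leukocytes, 18 had a higher MSC mean, 17 by over 1 log2 unit (3.63% of all tested genes), and 16 lay wholly above sham (13.3% of all). Their median difference was 1.65, beside a median near 0 for all genes, and none passed the adjusted p (smallest 0.106). *Ptprc*, the pan-leukocyte phosphatase CD45, read 7.64, 7.77 and 7.47 in sham and 12.15, 10.49 and 9.59 in MSC (difference 3.12 ± 0.64, SE; adjusted p = 0.106). The lowest MSC library stood well above every sham library, and NT lay lower still at 6.68. The mean level of the list in MSC replicates 1, 2 and 3 stood 2.96, 1.47 and 0.71 above sham, and its median difference was 1.01 without MSC replicate 1.

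B cells and plasma cells gave several of the largest differences among genes with a symbol. Of 21 tested genes, 20 had a higher mean and 18 lay wholly above sham (13.3% of all), with a median difference of 1.39. *Pou2af1*, a coactivator that B cells need for germinal centres, read 4.15, 4.06 and 4.12 in sham and 10.93, 7.90 and 6.41 in MSC (difference 4.31 ± 0.98, SE; adjusted p = 0.109). *Mzb1*, a chaperone of antibody-secreting cells, read 4.53, 4.42 and 4.80 against 11.11, 8.17 and 6.77 (difference 4.10). *Cd79a*, a signalling chain of the B cell receptor, read 4.01, 4.30 and 4.14 against 9.90, 7.87 and 6.65 (difference 3.99). For each of these, the sham values lay at the NT level and the MSC libraries spanned several log2 units above it. *Ms4a1*, which encodes CD20, differed by 3.55 (adjusted p = 0.106). *Ebf1*, a factor of early B cells that other tissues also use, had the only lower mean of the list at -0.11, with overlapping groups. Without MSC replicate 1 the median of the list was 0.95.

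T and NK cell genes showed the same order of libraries. Of 40 members among the genes listed, 33 reached the filter. Of these 33, 31 had a higher mean, with a median of 1.17, or 1.07 without the filter. Of the 33, 29 lay wholly above sham (13.3% of all tested genes) and 21 were over 1 log2 unit higher (3.63% of all). *Cd3e*, a chain of the T cell receptor complex, read 4.16, 4.33 and 4.34 in sham and 9.67, 6.48 and 5.65 in MSC (difference 2.99 ± 0.78, SE; adjusted p = 0.13). *Cd8a*, the coreceptor of cytotoxic T cells, read 3.67, 3.61 and 3.88 against 5.98, 4.78 and 4.41 (difference 1.34). *Cd4*, which marks helper T cells and, in the rat, macrophages too, read 8.42, 9.15 and 8.01 against 11.06, 10.06 and 9.58 (difference 1.71). The 3 genes did not overlap between groups, and *Cd4* was the only one with sham values above the bottom of the scale. *Zap70*, the kinase behind the T cell receptor, differed by 1.32 (adjusted p = 0.106), and *Cd2* by 3.01. The effector gene *Nkg7* differed by 0.92, and the regulatory T cell factor *Foxp3* by 0.68, from 4.24, 4.10 and 3.94 to 5.45, 4.60 and 4.27. *Icos* and *Ctla4*, a costimulator and a brake of activated T cells, differed by 3.02 and 1.16. *Eomes*, a factor of cytotoxic cells that some retinal ganglion cells also express, differed by -0.10 with overlap. Without MSC replicate 1 the median of the list was 0.74, and the differences were 1.79 for *Cd3e*, 0.88 for *Cd8a*, 1.78 for *Cd2*, 0.47 for *Nkg7*, 0.34 for *Foxp3*, 1.67 for *Icos* and 0.64 for *Ctla4*.

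**Figure D3:**
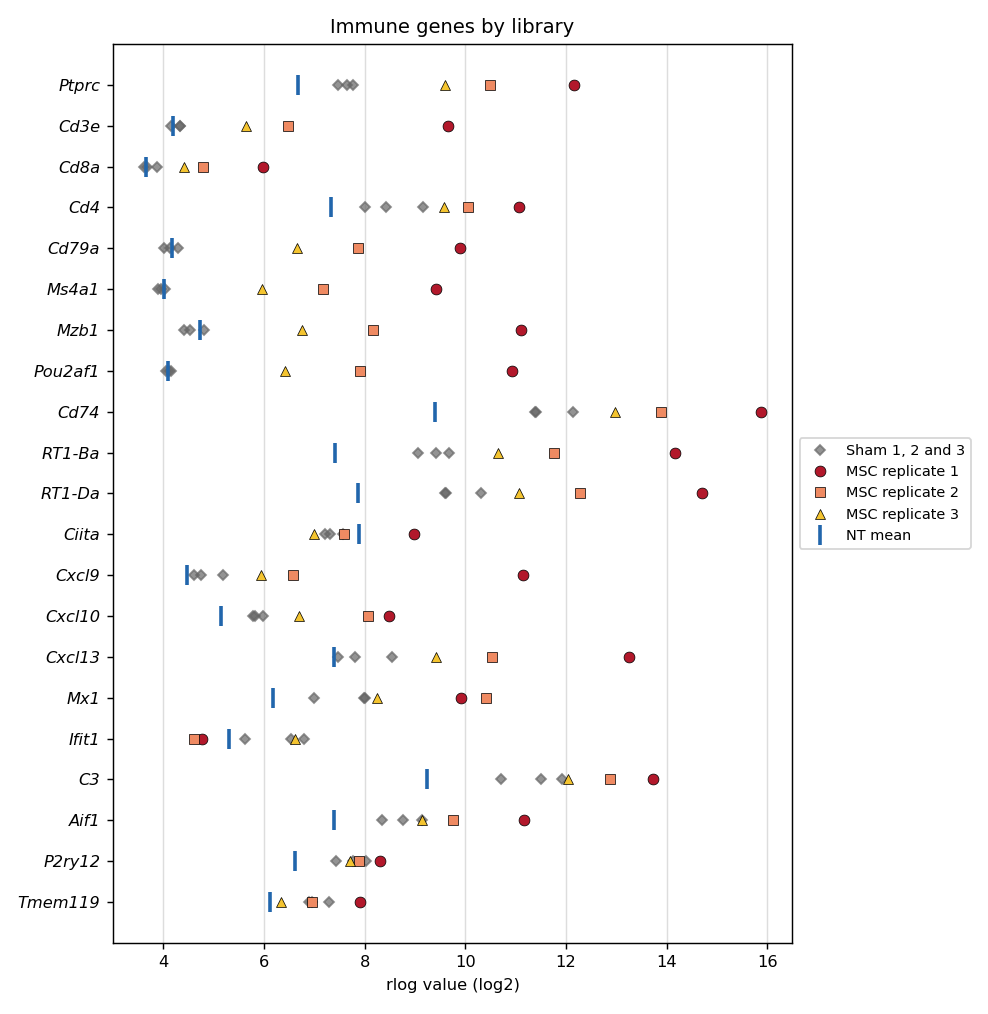
The rlog value (horizontal axis, log2) of 21 immune genes (vertical axis) in the 3 sham libraries (grey), MSC replicates 1 to 3 (coloured symbols) and as the NT mean (blue line). MSC replicate 1 is rightmost in most rows, up to 15.88 for *Cd74*, whereas for *Ifit1* it lies to the left of sham, and for *P2ry12*, *Tmem119* and *Ciita* other MSC symbols lie inside or to the left of the sham range.

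Genes of microglia and macrophages had higher means in the MSC group almost throughout. Of the 30 tested genes of microglia and macrophages, 29 had a higher mean, with a median of 1.01. Of the 30, 20 lay wholly above sham, beside 13.3% of all tested genes. *Lyz2*, lysozyme of macrophages and neutrophils, read 9.53, 9.77 and 9.98 in sham and 14.61, 11.94 and 10.97 in MSC (difference 2.75 ± 0.84, SE; adjusted p = 0.174). *Cd68*, a lysosomal protein of phagocytes, read 7.12, 7.59 and 6.69 against 9.95, 8.59 and 8.05 (difference 1.73). *Cst7*, a cystatin of activated microglia, read 3.59, 3.75 and 3.64 against 6.24, 5.39 and 4.51 (difference 1.72). The groups did not overlap in these 3 genes. *P2ry12*, the purinergic receptor of resting microglia, overlapped and read 8.04, 7.78 and 7.43 against 8.31, 7.89 and 7.71 (difference 0.22 ± 0.29, SE; adjusted p = 0.827). *Tmem119*, another microglial gene, was chosen after its values were seen and differed by 0.03 with overlapping groups, a sign that changed under several alternatives. *Cx3cr1* and *Csf1r*, which both states express, differed by 0.76 and 0.91. The scavenger receptor *Cd163* overlapped (difference 0.54), and *Aif1*, which encodes IBA1, differed by 1.27. With MSC replicate 1 left out the differences were 1.69 for *Lyz2*, 0.70 for *Aif1*, 0.53 for *Csf1r* and 0.079 for *Cd163*. Of the neutrophil and monocyte list only 6 genes reached the filter, and *S100a8* and *S100a9* did not. All 6 had a higher mean, and 1 lay wholly above sham (13.3% of all tested genes). Their median was 0.42, or 0.19 without MSC replicate 1, and the median of the list was 0.028 without the filter.

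MHC class II genes, which present antigen to helper T cells, had large positive differences. Of 14 tested genes, 12 had a higher mean and 10 lay wholly above sham (13.3% of all), with a median difference of 1.85. *Cd74*, the invariant chain that guides class II molecules, read 11.39, 12.14 and 11.40 in sham and 15.88, 13.88 and 12.97 in MSC (difference 2.60 ± 0.64, SE; adjusted p = 0.119). *RT1-Da* and *RT1-Ba*, the alpha chains of the rat DR-like and DQ-like molecules, differed by 2.84 and 2.81. *RT1-Ba* read 9.41, 9.67 and 9.06 against 14.16, 11.75 and 10.65. Reads may be shared among the near-identical RT1 genes, so a difference of 1 of them is uncertain. *Ciita*, the coactivator that switches class II genes on, read 7.31, 7.57 and 7.20 against 8.98, 7.59 and 6.99, so that MSC replicate 1 alone stood well above sham (difference 0.49 ± 0.45, SE; adjusted p = 0.724). *Rfxap*, a subunit of the factor that binds class II promoters, was the lowest of the list at -0.97, with 8.68 and 8.84 in MSC replicates 1 and 2 and 6.83 in replicate 3. The mean level of the list in NT stood at -0.85 against sham, and its median difference was 1.19 without MSC replicate 1. The differences of *RT1-Da*, *RT1-Ba*, *RT1-Bb* and *Ciita* were then 1.84, 1.82, 1.93 and -0.073.

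The promoters of the class II genes hold the CCAAT box (letters ATTGG, searched on both strands) that is bound by NF-Y next to the factors that recruit CIITA. Windows of 300 bases, from 250 before the gene start to 50 after it, were taken from RefSeq on the GRCr8 build, whereas the files were quantified on Rnor_6.0, and 11005 of 14357 tested genes with an unambiguous symbol were matched. The box was found in 11 of 12 class II windows (91.7%) and in 37.5% of all 33469 windows. Stretches ending at the gene start or shortly before are shown for the alpha chains and a beta chain with large differences, read along the gene, with the CCAAT box in capitals. They lie at chr20:4515336-4515400 (+) for *RT1-Da*, chr20:4576984-4577048 (+) for *RT1-Ba* and chr20:4604145-4604209 (-) for *RT1-Bb*.
RT1-Da: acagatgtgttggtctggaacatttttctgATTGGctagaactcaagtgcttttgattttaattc
RT1-Ba: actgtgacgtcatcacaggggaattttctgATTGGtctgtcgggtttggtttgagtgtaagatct
RT1-Bb: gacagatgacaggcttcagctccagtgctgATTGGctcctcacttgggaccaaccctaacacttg
In these 3 windows the box begins 49, 43 and 61 bases before the gene start. Over every tested gene with a window, 2.78% of the 4066 with the box were over 1 log2 unit higher in MSC and 2.62% of the 6939 without it, with medians of -0.014 and -0.0020. A match describes the letters and not a bound site.

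MHC class I genes and the peptide loading machinery differed by less. All 22 tested genes had a higher mean, 10 lay wholly above sham (13.3% of all tested genes), and the median was 0.88. *B2m*, the light chain of class I, read 12.88, 13.26 and 12.95 against 15.66, 14.27 and 13.62 (difference 1.49). *Psmb8*, an immunoproteasome subunit, had the largest difference of the list at 1.72, and *Nlrc5*, the class I coactivator, read 6.30, 6.22 and 6.36 against 8.18, 7.73 and 7.25 (difference 1.43; adjusted p = 0.12). *Tap1*, a peptide transporter, differed by 0.88 and *RT1-A2*, a class I heavy chain, by 1.097 with overlapping groups. With MSC replicate 1 left out the median was 0.48, and *B2m*, *Psmb8* and *Tap1* differed by 0.92, 1.06 and 0.50.

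Interferon-stimulated genes followed another order than lymphocyte genes. The mean level of the 43 tested genes stood 1.24 above sham in MSC replicate 1, 1.30 in replicate 2 and 0.33 in replicate 3, and replicate 1 was the highest for 16 of the 43. In all 41 had a higher mean, 27 lay wholly above sham (13.3% of all tested genes), and the median was 1.03. *Mx1*, a GTPase that blocks viruses, read 6.99, 8.02 and 7.99 in sham and 9.91, 10.40 and 8.24 in MSC (difference 1.85 ± 0.53, SE; adjusted p = 0.148). *Irf7*, which amplifies type I interferon, read 6.96, 7.62 and 7.46 against 8.21, 8.97 and 7.49 (difference 0.88), so that MSC replicate 3 lay within the sham range. *Gbp5*, a GTPase induced by interferon gamma, read 7.03, 7.58 and 7.21 against 10.36, 9.11 and 8.33 (difference 2.00), *Gbp2* differed by 1.68 and *Irf1* by 0.77, the last becoming 0.37 without MSC replicate 1. *Ifi47*, an interferon-inducible GTPase, had the smallest adjusted p of the list at 0.11 (difference 1.97). *Ifit1* went the other way, with 5.62, 6.54 and 6.80 in sham and 4.77, 4.60 and 6.62 in MSC (difference -0.99 ± 0.72, SE; adjusted p = 0.64).

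The interferon-stimulated response element (the letters GAAA on both sides of any 2 bases, searched on both strands) was present in 22 of 32 windows of interferon-stimulated genes (68.8%), in 9 of 19 of the class I list (47.4%) and in 3.92% of all 33469 windows. Over every tested gene with a window, 40 of the 325 with the element (12.3%) were over 1 log2 unit higher in MSC, against 255 of the 10680 without it (2.39%). The median difference of the first was 0.10 and that of the second -0.01. Stretches are shown for 4 genes of these lists, with the element in capitals. It stands on the opposite strand in each, so that it reads as TTTC at either end. They lie at chr2:234005666-234005726 (+) for *Gbp2*, chr2:233910913-233910982 (+) for *Gbp5*, chr1:205800053-205800122 (-) for *Irf7* and chr20:4668625-4668694 (-) for *Tap1*.
Gbp2: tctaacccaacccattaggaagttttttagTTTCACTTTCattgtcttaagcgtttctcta
Gbp5: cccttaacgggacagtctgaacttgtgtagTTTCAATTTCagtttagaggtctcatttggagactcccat
Irf7: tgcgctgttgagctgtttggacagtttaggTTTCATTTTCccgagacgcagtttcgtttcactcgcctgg
Tap1: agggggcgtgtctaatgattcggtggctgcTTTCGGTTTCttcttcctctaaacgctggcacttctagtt

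Chemokine genes mostly had higher means in the MSC group. Of 53 chemokines and receptors among the genes listed, 39 reached the filter, which is a mean that includes the MSC libraries. Of these 39, 32 had a higher mean, and the median was 0.62, but 0.28 without the filter. Wholly above sham lay 25 (13.3% of all tested genes), and 1 lay wholly below (11.3% of all). *Cxcl13*, the B cell attractant of lymphoid follicles, read 7.80, 8.55 and 7.47 in sham and 13.26, 10.53 and 9.43 in MSC (difference 3.13 ± 0.75, SE; adjusted p = 0.115). *Cxcl9*, induced by interferon gamma, read 4.74, 4.61 and 5.19 against 11.15, 6.57 and 5.95 (difference 3.04). *Cxcl10* was closer between replicates 1 and 2, with 5.97, 5.82 and 5.78 against 8.48, 8.06 and 6.70, and had the smallest adjusted p of the immune lists at 0.0998 (difference 1.89 ± 0.36, SE). *Ccl5* and *Ccl2*, which draw T cells and monocytes, differed by 1.53 and 1.33 without overlap, and *Ccl19* overlapped (difference 0.62). *Ccr9*, a homing receptor of gut T cells, lay wholly below sham, at 5.56, 5.63 and 5.44 against 6.02, 6.03 and 5.92 (difference -0.45). Without MSC replicate 1 the median of the list was 0.30, and the differences were 2.04 for *Cxcl13*, 1.41 for *Cxcl9* and 0.080 for *Ccl19*.

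Among the other innate lists, complement had 24 of 26 tested genes with a higher mean (median 0.83), cell death by the inflammasome, necroptosis and pyroptosis 20 of 20 (median 0.78), and TNF and NF-κB 25 of 28 (median 0.47). Without MSC replicate 1 these medians were 0.56, 0.36 and 0.22. *C1qc*, a chain of the first complement component, read 9.07, 9.31 and 8.62 against 11.91, 10.53 and 10.11 (difference 1.85; adjusted p = 0.106). *C3*, the central component, read 11.51, 11.92 and 10.71 against 13.72, 12.87 and 12.04 (difference 1.49). *Casp1* and *Nlrp3*, the protease and the sensor of the inflammasome, differed by 1.57 and 0.86, and *Ripk3* and *Mlkl*, the executioners of necroptosis, by 0.98 and 0.51, the last with overlap. *Birc3*, an NF-κB target, differed by 1.36, whereas *Tnfaip3*, the feedback inhibitor A20, differed by -0.32 with overlapping groups. *Il2rg*, the common chain of lymphocyte cytokine receptors, had the largest difference of the gp130 and JAK-STAT list at 2.87, beside 0.25 for *Stat3*, the factor that gp130 activates. With MSC replicate 1 left out *Casp1* differed by 0.91, *Ripk3* by 0.57, *Mlkl* by 0.25 and *Birc3* by 0.73.

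Cell cycle genes had their highest level in MSC replicate 1. Of 38 tested genes of S phase and mitosis, 35 had a higher mean, with a median of 0.68. Of the 38, 20 lay wholly above sham (13.3% of all tested genes), and replicate 1 was the highest MSC library for 37. *Mki67*, the Ki-67 antigen of dividing cells, read 5.47, 5.67 and 6.02 against 9.94, 8.22 and 7.05 (difference 2.68 ± 0.65, SE; adjusted p = 0.117). *Top2a*, which untangles replicated DNA, read 5.09, 5.09 and 5.27 against 9.09, 7.44 and 6.20 (difference 2.43). *Pcna*, the replication clamp, which nondividing cells also use for repair, overlapped (difference 0.19). *Prc1*, a cytokinesis gene, was the lowest at -0.41. The median of the list was 0.34 without MSC replicate 1. The leukocyte lists moved in the same libraries as this list, and their part in the cell cycle values was not tested.

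**Figure D4:**
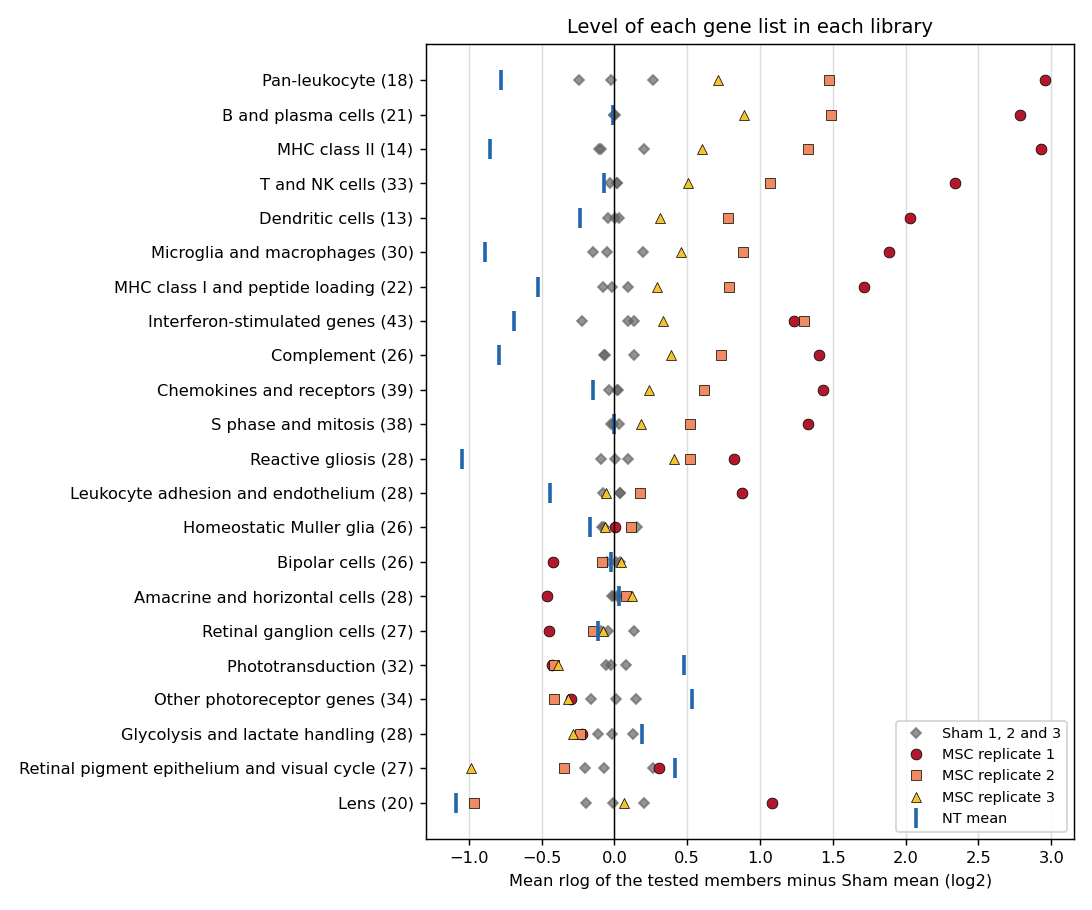
Mean rlog level of each of 22 gene lists (vertical axis, number of tested genes in parentheses) minus its sham mean (horizontal axis, log2) in the 3 sham libraries (grey), MSC replicates 1 to 3 (coloured symbols) and as the NT mean (blue line). The pan-leukocyte list fans out to the right from 0.71 in MSC replicate 3 to 2.96 in replicate 1, the interferon-stimulated list reaches 1.24 in replicate 1 and 1.30 in replicate 2, and the phototransduction symbols of the 3 MSC libraries coincide between -0.43 and -0.39.

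Photoreceptor genes had lower means in the MSC group, by nearly the same amount in each MSC library. Of 32 tested phototransduction genes, 28 had a lower mean, 18 lay wholly below sham (11.3% of all tested genes) and none wholly above, with a median of -0.40. The mean level of the list stood at -0.43, -0.41 and -0.39 in MSC replicates 1, 2 and 3 against sham, and at 0.47 in NT. Leaving out any single library kept the median between -0.47 and -0.37. The other photoreceptor genes had a median of -0.34, with 28 of 34 lower and 20 wholly below. None of the genes in either list passed the adjusted p (smallest 0.0743).

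The values of rod genes are given first. *Gnat1*, the alpha subunit of rod transducin, read 16.99, 16.83 and 16.45 in sham and 15.54, 15.63 and 15.69 in MSC (difference -1.14, the lowest of the list). *Pde6b*, a catalytic subunit of the rod phosphodiesterase, read 14.47, 14.29 and 14.27 against 13.73, 13.54 and 13.61 (difference -0.72 ± 0.13, SE; adjusted p = 0.0743). In both genes the MSC libraries lay close together and below every sham library, and sham lay below NT. *Sag*, rod arrestin, differed by -0.80 and *Pde6a*, the other catalytic subunit, by -0.32. *Nrl*, the transcription factor that makes a photoreceptor a rod, read 12.31, 11.87 and 12.11 against 11.40, 11.42 and 11.59 (difference -0.62 ± 0.13, SE; adjusted p = 0.106). *Esrrb*, a nuclear receptor of rods, had the largest difference of its list, from 10.66, 9.89 and 10.03 to 9.12, 9.31 and 9.34 (difference -0.93; adjusted p = 0.0921). *Crx*, which acts in rods and cones, differed by -0.45, *Rom1*, of the outer segment disc rim, by -0.55, and *Nr2e3*, which represses cone genes in rods, by -0.29 with overlap. *Guca1b* and *Rdh12*, an activator of guanylate cyclase and a retinal reductase, were chosen after their values were seen and differed by -0.83 and -0.74 without overlap.

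Cone genes did not share 1 pattern. *Opn1mw*, the middle-wavelength opsin, read 8.34, 8.21 and 8.19 against 7.95, 7.83 and 7.63 (difference -0.44; adjusted p = 0.259), wholly below sham. *Arr3*, cone arrestin, read 9.99, 9.81 and 10.29 against 8.45, 9.91 and 9.46 (difference -0.75), lowest in MSC replicate 1 and within the sham range in replicate 2. *Opn1sw*, the short-wavelength opsin, overlapped (difference -0.18), and *Cngb3*, the beta subunit of the cone channel, had the highest difference of the list at 0.25 with overlap. *Gnat2*, cone transducin, which was chosen after its values were seen, differed by 0.22, with 11.32, 11.13 and 11.03 in sham and 10.98, 11.49 and 11.65 in MSC. A difference between rods and cones was not tested.

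**Figure D5:**
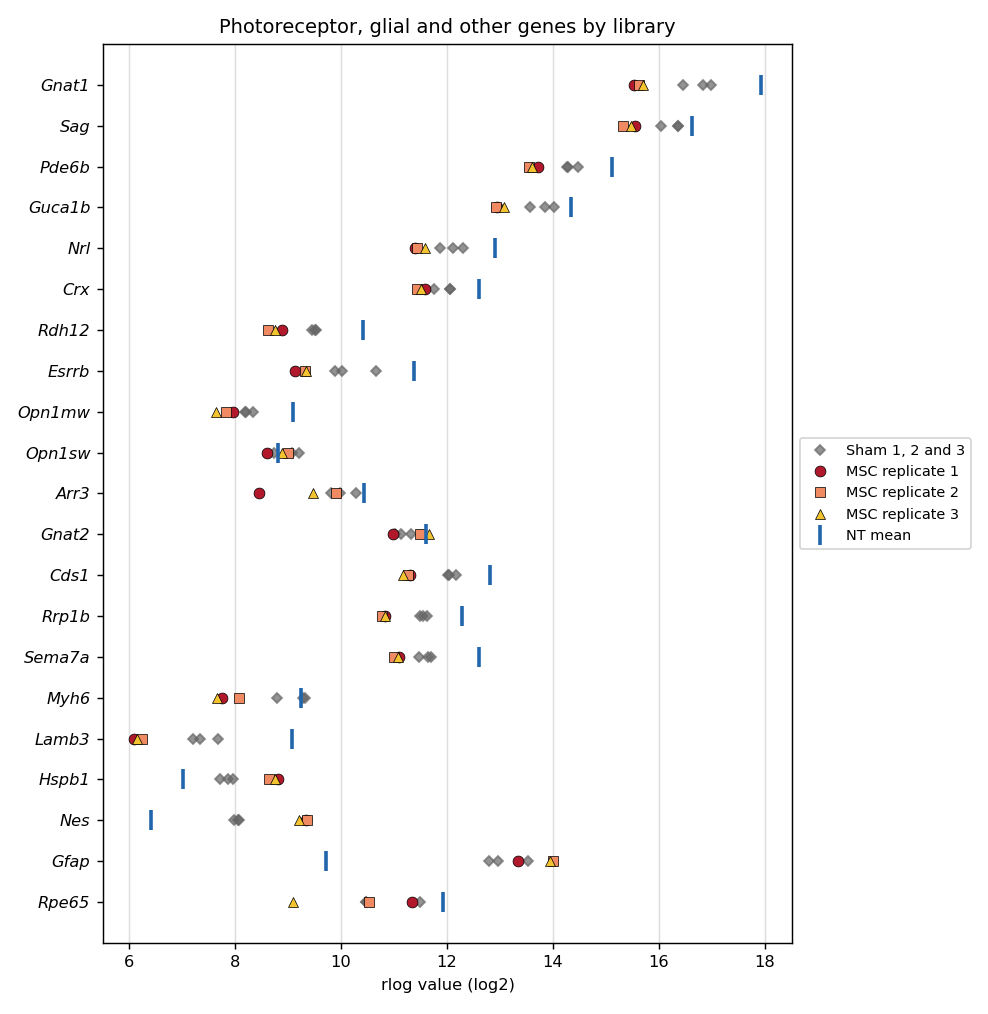
The rlog value (horizontal axis, log2) of 21 photoreceptor, glial and other genes (vertical axis) in the 3 sham libraries (grey), MSC replicates 1 to 3 (coloured symbols) and as the NT mean (blue line). For *Gnat1*, *Pde6b* and *Cds1* the MSC symbols cluster to the left of sham with NT to the right, for *Nes* and *Hspb1* they lie to its right with NT to the left, and for *Rpe65* the MSC symbols scatter from 9.09 to 11.33.

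Many promoters of photoreceptor genes hold the letters TAATCC, to which the homeobox factor CRX binds. They were found on either strand in 6 of 22 phototransduction windows (27.3%), in 9 of 28 windows of the other photoreceptor list (32.1%) and in 7.17% of all windows. Over every tested gene with a window, the median difference was -0.020 for the 578 with these letters and -0.0051 for the 10427 without, and 316 and 5322 of them had a lower mean. Shown are *Cngb1*, the beta subunit of the rod channel, at chr19:9732587-9732645 (+), *Cabp4*, a calcium sensor of the photoreceptor synapse, at chr1:210862667-210862732 (-), and *Crx* itself at chr1:85681914-85681979 (-), with the letters in capitals. In *Crx* they lie on the opposite strand and read GGATTA.
Cngb1: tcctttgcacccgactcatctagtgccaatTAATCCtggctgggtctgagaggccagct
Cabp4: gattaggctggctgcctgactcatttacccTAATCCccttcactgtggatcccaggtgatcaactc
Crx: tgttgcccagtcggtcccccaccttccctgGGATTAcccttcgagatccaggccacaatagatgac
*Cabp4* read 11.89, 11.76 and 11.99 in sham and 11.58, 11.12 and 11.30 in MSC (difference -0.55; adjusted p = 0.281). *Cngb1* differed by -0.31, and both lay wholly below sham.

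Genes around the photoreceptors were lower too. The 28 tested genes of glycolysis and lactate handling, pathways on which photoreceptors depend heavily, had a median of -0.30, which was -0.20 without sham replicate 2. Of these 28 genes, 17 lay wholly below sham, beside 11.3% of all tested genes. *Hk2*, the hexokinase of photoreceptors, read 13.24, 12.49 and 12.64 against 11.90, 12.05 and 12.09 (difference -0.78 ± 0.22, SE; adjusted p = 0.148), with NT at 14.01. *Slc16a1*, the lactate transporter MCT1, read 11.51, 11.59 and 11.48 against 11.28, 11.06 and 10.997 (difference -0.41; adjusted p = 0.137). *Ldha*, lactate dehydrogenase, differed by -0.37. In all 3 genes the MSC libraries lay below every sham library and NT above. Respiratory chain genes had a median of -0.14, with 6 of 44 wholly below sham, a share near the 11.3% of all tested genes. That median was -0.043 without sham replicate 2, -0.24 without MSC replicate 1 and -0.085 without MSC replicate 3.

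Several genes with the smallest p-values were lower in MSC by an even amount. *Sema7a*, a membrane-anchored semaphorin, read 11.70, 11.47 and 11.64 against 11.09, 11.001 and 11.07 (difference -0.55 ± 0.09, SE; adjusted p = 0.056). *Rrp1b*, of ribosomal RNA processing, read 11.62, 11.55 and 11.48 against 10.82, 10.78 and 10.83 (difference -0.74; adjusted p = 0.066). *Mast2*, a microtubule-associated kinase, differed by -0.82 and *Rgs20*, a regulator of G protein signalling, by -0.73 (adjusted p = 0.0645 and 0.0743). The MSC libraries of *Rrp1b* and *Sema7a* lay closer together than their sham libraries. Naming genes for small p-values favours libraries that lie close together, so the evenness of these genes is no separate result. *Lamb3*, a laminin chain, read 7.68, 7.21 and 7.34 against 6.10, 6.25 and 6.14 (difference -1.25; adjusted p = 0.14), beside 9.07 in NT. *Tmem221* had the lowest difference of any gene with a symbol whose groups did not overlap, -2.24 (adjusted p = 0.148), at 7.55, 6.36 and 7.54 against 4.89, 4.92 and 4.91. It lay at 5.90 in NT, between the MSC and the sham libraries, whereas NT lay above sham for *Lamb3*.

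Genes of the inner retinal neurons are set beside the 75.4% of all tested genes whose groups overlapped. The bipolar list had a median of -0.16 and 22 of 26 tested genes overlapping, and the amacrine and horizontal list -0.10 and 25 of 28 overlapping. Their mean levels stood at -0.42 and -0.46 in MSC replicate 1 and between -0.08 and 0.12 in the other two. The medians were -0.0063 and 0.071 without MSC replicate 1, and -0.31 and -0.18 without MSC replicate 3. *Pax6* of amacrine cells differed by -0.05 with overlap. *Calb2*, calretinin, read 13.15, 13.51 and 12.89 against 12.33, 12.54 and 12.53 (difference -0.72; adjusted p = 0.146), wholly below sham. Retinal ganglion cell genes had a median of -0.31, and 11 of 27 lay wholly below sham (11.3% of all tested genes) and 15 overlapped. *Nefl*, the neurofilament light chain, read 12.71, 12.92 and 12.40 against 11.63, 12.08 and 12.34 (difference -0.66; adjusted p = 0.215). *Opn4*, melanopsin of the light-sensing ganglion cells, read 7.87, 7.68 and 8.25 against 7.205, 7.203 and 7.277 (difference -0.71; adjusted p = 0.106), even among the MSC libraries. *Rbpms*, a marker of all ganglion cells, differed by -0.23 and *Pou4f1* by -0.20, the latter with overlap.

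Genes of reactive Müller glia and astrocytes mostly had higher means in the MSC group. Of 28 tested genes of reactive gliosis, 26 had a higher mean and 17 lay wholly above sham (13.3% of all tested genes). The median was 0.55, and 0.46 without MSC replicate 1. *Hspb1* was the member that passed the adjusted p. *Lcn2*, the iron-binding lipocalin of reactive astrocytes, read 10.66, 10.82 and 10.91 in sham and 12.26, 11.73 and 11.49 in MSC (difference 1.03 ± 0.21, SE; adjusted p = 0.106). *Serpina3n*, a protease inhibitor of reactive astrocytes, had the largest difference at 2.24, and MSC replicate 3 was its highest library, with 9.43, 9.79 and 9.76 against 11.73, 11.05 and 12.91. *Nes*, the filament nestin, which was chosen after its values were seen, read 7.97, 8.04 and 8.07 against 9.33, 9.36 and 9.21 (difference 1.27; adjusted p = 0.115), with NT at 6.41. *Gfap*, the filament that marks gliosis, read 12.95, 13.53 and 12.80 against 13.33, 13.99 and 13.94 (difference 0.66 ± 0.26, SE; adjusted p = 0.307), so that the groups overlapped while NT lay at 9.72. *Vim*, the filament of all Müller cells, differed by 0.42. *Cryab*, a small heat shock protein that is also a lens crystallin, had the lowest difference at -0.59 with overlap. Genes of Müller cell homeostasis were balanced, 13 higher and 13 lower, with a median of -0.01 that was -0.088 without MSC replicate 2 and 0.080 without sham replicate 2. *Glul*, glutamine synthetase, differed by -0.12 with overlap, and *Aqp4*, the water channel, by 0.71, from 12.08, 11.77 and 12.15 to 12.25, 13.09 and 12.78.

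RPE genes, which NaIO3 strikes first, differed among the MSC libraries more than between the groups. The mean level of the 27 tested genes stood at 0.31, -0.34 and -0.98 against sham in MSC replicates 1, 2 and 3, and from -0.20 to 0.27 in the sham libraries. *Rpe65*, the isomerase that regenerates the chromophore, read 10.47, 10.47 and 11.48 in sham and 11.33, 10.54 and 9.09 in MSC (difference -0.49 ± 0.54, SE; adjusted p = 0.78). *Pmel*, of the pigment granules, read 11.29, 12.08 and 12.23 against 11.71, 10.42 and 9.29 (difference -1.39; adjusted p = 0.54). MSC replicate 3 was the lowest in both and MSC replicate 1 lay within the sham range. *Mertk*, which RPE cells and macrophages use to engulf debris, differed by 0.53 and lay wholly above sham. *Rdh11*, a retinol dehydrogenase that photoreceptors express too, read 11.72, 11.80 and 11.69 against 11.07, 10.90 and 11.06 (difference -0.73; adjusted p = 0.106).

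Lists of the drugs' own pathways and of the graft's cell type had medians from 0.06 to 0.17. In the paper's methods dexamethasone was injected before transplantation and cyclosporin took its place afterwards. The glucocorticoid list therefore does not show the response at the time of dosing. The glucocorticoid response list had a median of 0.06, and *Fkbp5*, which glucocorticoids induce, read 9.27, 9.12 and 9.17 in sham and 9.62, 9.26 and 9.22 in MSC (difference 0.18), with overlap. *Cebpd* was the highest of that list at 0.79 (adjusted p = 0.106) and *Sgk1* the lowest at -0.39. The calcineurin and NFAT list, whose pathway cyclosporin inhibits, had a median of 0.11. *Nfatc1* was its highest member at 1.103. The first median ran from -0.072 without MSC replicate 1 to 0.26 without MSC replicate 3, and the second from -0.019 to 0.17 without the same libraries. Rat markers of mesenchymal stromal cells had a median of 0.17, with 16 of 19 overlapping, which became -0.03 with quantile normalization, -0.19 without MSC replicate 1, and 0.064 and 0.095 without sham replicates 1 and 2. *Nt5e* and *Thy1*, surface antigens by which MSCs are defined, differed by -0.12 and -0.38. The part of human reads in the values of these markers was not tested. Neurotrophic and growth factor genes had a median of 0.04, with *Cntf* at 0.45 wholly above sham and *Bdnf* at -0.53 wholly below. This median was -0.08 with quantile normalization and ran from -0.014 without sham replicate 1 to 0.068 without MSC replicate 3. Antioxidant genes had a median of 0.04, which was -0.053 without MSC replicate 1 and -0.0086 without sham replicate 1, and *Hmox1*, heme oxygenase, was the highest at 0.74, or 0.47 without MSC replicate 1 (adjusted p = 0.141).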

How the data were processed

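RNA-Seq was run by the authors on rat retinas, and this comparison used 3 MSC and 3 sham libraries. The authors quantified the reads with Salmon 1.1.0 on the rat transcriptome and genome assembly (Rnor 6.0). They deposited log2 values, made with the rlog transformation of DESeq2 (version 3.2 in the submitters' processing notes). The rlog values are shrunken, so differences are smaller than those of counts. Depth is unknown. A series table held 15 further columns of per-sample values and an unnamed column marking 88 genes, neither used. The 15 columns were a copy in which 0 values differed.

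The values were fitted as deposited with limma 3.58.1 in R 4.3.3: 12 libraries (NT, sham, MSC and MSCEPO), group means, moderated variances with a trend, and Benjamini-Hochberg adjustment over 15449 genes. Called genes had an adjusted p under 0.05 and a difference over 1. The code was tested on simulated data. For a single value, an exact two-sided permutation test of 3 libraries against 3 cannot go below p = 0.1, so none was used.

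Groups came from sample titles. The comparison, the 42 gene lists and their key genes were chosen with earlier results of these data known, and lists carry no test. Named genes were the key genes, the extremes and smallest p of each list, the called genes, and the 10 largest or most significant in each direction, with genes lacking a symbol limited to 2, and some genes that this rule names are not reported here. A symbol on several rows was read from its highest row within a list. Promoters came from RefSeq and were searched with Python 3.11.15. Alternatives were other thresholds, filters, scalings, fits, library weights, the replicate block, and each library left out.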

Additional observations from a re-analysis of the deposited data

How the results depend on the processing

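With 3 libraries a group and the uneven MSC libraries, the number of called genes depended on the fit. Called genes were 31 higher and 1 lower with only the 6 MSC and sham libraries in the fit, 0 and 0 with all 15 (1481 and 589 at an unadjusted p under 0.05), and 456 and 30 with limma array weights, which give each library its own precision. Median centring gave 17 higher. A log2 difference over 1 alone gave 561 and 25, and an unadjusted p under 0.05 alone 1428 and 586. With each library left out, 1 to 570 were higher and 0 to 3 lower. The cause of these changes was not tested. The filters, the fit without a variance trend, quantile normalization and the adjusted p alone stayed within 1.5 times of both counts. Nothing in the labels says that a replicate number marks a shared animal, litter or day. The deviations of MSC and sham libraries with the same number from their group means correlated at -0.208, -0.108 and -0.06. With 3 libraries a group, these values cannot decide whether the numbers pair the samples. A fit with the replicate number as a block called 124 higher and 2 lower.

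Of the named genes, 142 in all, 6 changed sign under an alternative, each with an adjusted p far from the threshold. *Tmem119* became -0.012 with median centring, -0.10 with quantile normalization and -0.075 with array weights. Array weights turned *Pax6* to 0.029. With 1 library left out, the difference of *Tmem119* ran from -0.39 to 0.39, *Ciita* from -0.073 to 0.92, *Pcna* from -0.082 to 0.40, *Rpe65* from -0.997 to 0.12, *Pax6* from -0.12 to 0.038 and *Myoc* from -1.76 to 0.033. The lens median was -0.24 with all 6 libraries, -0.80 without MSC replicate 1 and 0.36 without MSC replicate 2. Depth was unknown, so no limit of detection can be given.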

Other observations

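Tissues next to the retina gave values of their own. Of 19 tested genes of cornea, conjunctiva, iris and ciliary body, 17 had a lower MSC mean. Of the 19, 6 lay wholly below sham, beside 11.3% of all tested genes. The median was -0.53, and it was -0.87 without sham replicate 1 and -0.32 without sham replicate 3. *Krt4*, a keratin of moist surface epithelia, read 7.59, 8.64 and 7.46 in sham and 6.55, 6.48 and 6.49 in MSC (difference -1.39; adjusted p = 0.303), and *Krt75* differed by -0.83 (adjusted p = 0.106). *Krt12*, the corneal keratin, read 9.09, 10.95 and 10.33 against 9.21, 8.998 and 8.79, with overlap. The mean level of this list ran from -0.48 to 0.27 in the sham libraries and from -0.76 to -0.30 in the MSC libraries. *Acta2* and *Myh11*, contractile genes of smooth muscle and pericytes, differed by -1.65 and -1.27 without overlap, *Acta2* from 9.66, 10.45 and 10.59 to 9.39, 8.08 and 8.28. Lens genes varied by library, with mean levels of 1.08, -0.96 and 0.07 against sham in MSC replicates 1, 2 and 3, from -0.19 to 0.20 in sham and -1.09 in NT. *Cryaa*, alpha-A crystallin, read 14.31, 15.17 and 14.22 in sham and 15.18, 12.62 and 13.54 in MSC. *Myoc*, of the trabecular meshwork and ciliary body, read 9.27, 9.55 and 10.15 against 10.66, 8.72 and 7.07. The part of these tissues in the differences of other genes was not tested.

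Several further genes had large positive differences without overlap. *Mcpt1*, a mast cell protease, read 4.22, 4.23 and 4.25 in sham and 8.94, 10.00 and 6.60 in MSC (difference 4.28; adjusted p = 0.138), highest in MSC replicate 2. *Ubd*, an interferon-inducible ubiquitin-like protein, read 4.08, 4.41 and 4.16 against 11.03, 7.02 and 6.03 (difference 3.81, or 2.31 without MSC replicate 1). *Mmp12*, the macrophage elastase, read 4.50, 4.47 and 4.83 against 6.02, 7.22 and 6.97 (difference 2.14; adjusted p = 0.13), and here MSC replicate 1 was the lowest of the 3. *Fn1*, fibronectin, differed by 1.30. *Itgal*, the leukocyte integrin, differed by 2.24 and its ligand *Icam1* by 1.02, whereas *Vcam1* overlapped (difference 0.82). Without MSC replicate 1 *Icam1* differed by 0.65 and *Vcam1* by 0.25. *Slc39a8*, a zinc importer, read 6.92, 6.81 and 6.99 against 7.81, 7.63 and 7.52 (difference 0.75; adjusted p = 0.0681). *Mcam*, a marker of pericytes and stromal cells, read 8.63, 8.75 and 8.65 against 9.57, 9.55 and 9.40 (difference 0.83; adjusted p = 0.137), an even difference in all 3 MSC libraries. Of 23 tested immediate early genes, 21 had a higher mean, with a median of 0.29 that was 0.064 without MSC replicate 1. Clock genes had a median of -0.08, which was -0.016 without MSC replicate 1 and -0.049 without sham replicate 1, with *Arntl*, the core activator, at -0.33 wholly below sham.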
